A study of Homo sapiens with 4 samples.

Results

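The genes described here repair broken, crosslinked or mispaired DNA. They are 47 named members of homologous recombination, the Fanconi anemia pathway, the replication checkpoint and mismatch repair, chosen by gene symbol. Of these, 38 had a row among the 6828 genes of the deposited table, and all 38 were among the 6812 genes tested. They were measured by RNA-seq in A549 cells, an established line from a human lung adenocarcinoma, infected for 72 h with lentivirus carrying either a control shRNA (shctrl) or an shRNA against the lncRNA USP2-AS1 (shUSP2-AS1), with 2 libraries in each group. By the study's methods both kinds of shRNA were cloned in the same lentiviral vector, the infected cells were selected with puromycin, and the RNA-seq was done to find genes regulated by USP2-AS1. Which of the study's USP2-AS1 shRNAs was used is not given in the sources used here, and no uninfected or rescued cells are among these 4 libraries.

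Homologous recombination copies the sister chromatid to mend a double-strand break or a broken replication fork. Nucleases cut the ends back, replication protein A (RPA) coats the single strands, and BRCA1, PALB2 and BRCA2 prepare those strands for the search for a matching sequence. The Fanconi proteins mark crosslinked DNA by adding ubiquitin to the FANCD2 and FANCI pair, mismatch repair removes bases misplaced by the polymerase, and the checkpoint kinases hold the cell cycle while forks are repaired. The sister chromatid exists only in S and G2, and many of these genes are known to be transcribed most strongly in cycling cells.

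For USP2-AS1 itself, 24 and 22 reads were recovered in shctrl against 2 and 7 in shUSP2-AS1, so the targeted RNA was lower in each shUSP2-AS1 library. Reads on the listed genes numbered between 10772788 and 14120472 per library (listed genes only, not the whole library). The 5 genes fixed as markers of cycling cells, MKI67, PCNA, E2F1, CCNA2 and CCNB1, were all lower in shUSP2-AS1, with log2 fold changes from -2.42 to -1.01, and the cell cycle inhibitor CDKN1A was higher, with 1.52. Of the epithelial markers, KRT8, KRT18 and KRT19 were present with at least 3254 normalised reads per library and had log2 fold changes of -0.77, -1.05 and 0.75, while EPCAM and CDH1 were not analysed here. Of 5 markers of other cell types, only COL1A1 was analysed here, with 261 to 618 normalised reads per library and a log2 fold change of 1.05. In bulk RNA, fewer cells in S and G2 phase and less RNA per cell cannot be told apart, and the part of cell cycle phase in the changes below was not tested.

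The members tested were lower in shUSP2-AS1 cells almost throughout. Of the 38 members tested, 37 had an estimate below 0, against 49.4% of all genes tested, and 27 were called lower. A gene counted as called when its Benjamini-Hochberg adjusted p from limma was below 0.05 and it changed by 1 or more on the log2 scale in either direction. By the same rule 13.5% of all genes tested were called lower and 16.1% higher. That balance turned with RLE scaling computed on the listed genes alone (1143 genes lower and 934 higher). No member was called higher by limma, edgeR or DESeq2, and at an unadjusted p below 0.05 from limma 1 member, MUS81, had an estimate above 0. The median log2 fold change was -1.64 over the 38 members and 0.19 over all genes tested. The 2 libraries of one group did not overlap those of the other for any member, which was also so for 100% of all genes tested (6811 of 6812). The table holds only genes that had passed the authors' own test at an adjusted p below 0.05. All 38 members likewise had an adjusted p below 0.05 here, so the size of the change, and not the p-value, tells the members apart. Log2 fold changes (log2FC, shUSP2-AS1 against shctrl, with standard errors, SE) are on the scale of log2(normalised read count + 1), on which changes of genes with few reads come out too small.

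**Figure D1:**
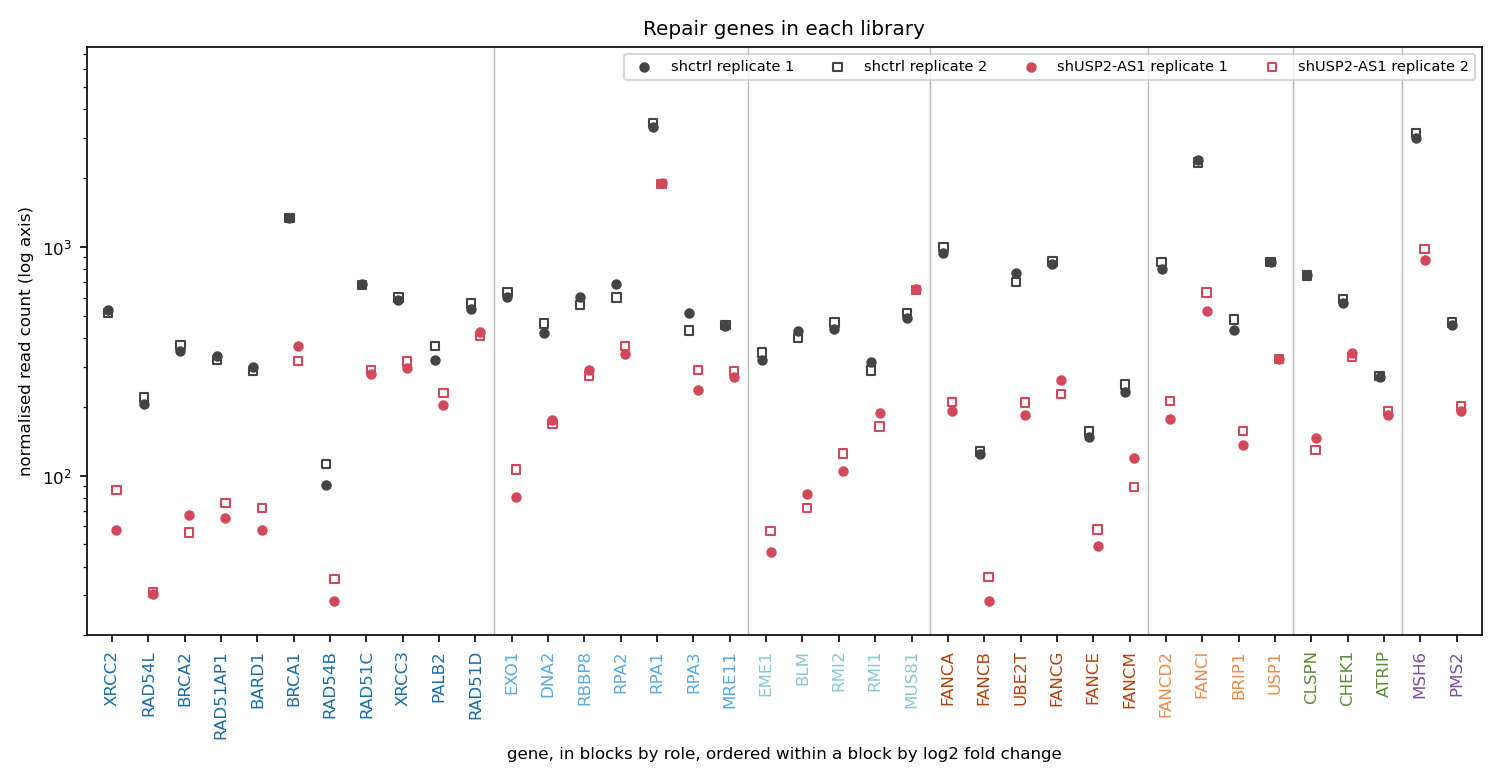
Normalised read count (log axis) of the 38 repair genes in each of the 4 libraries, in blocks by role with gene names coloured by role. Filled circles are replicate 1 and open squares replicate 2, grey for shctrl and red for shUSP2-AS1. The red symbols lie below the grey ones for every gene but MUS81.

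All 10 genes tested in the Fanconi groups were called lower, with log2 fold changes from -2.27 to -1.22 and a median of -1.85. This count depends on the grouping, since each gene was placed in 1 role only. Some genes counted with recombination are also Fanconi anemia genes, among them PALB2 (-0.66, not called), BRCA2 (-2.54) and RAD51C (-1.27). Further Fanconi genes are in a mixed list with recombination genes, described below, in which 13 of 22 tested were called lower. Among the 23 recombination genes tested, 14 were called lower, with values from -2.87 to 0.38 and a median of -1.36. Of the 3 checkpoint genes tested, 1 was called lower, and the median was -0.78. Both mismatch repair genes tested were called lower. The other 9 members, RAD50, NBN, FANCC, FANCF, FANCL, ATM, ATR, CHEK2 and MSH3, were not analysed here. The medians therefore cover only genes that had passed the authors' threshold.

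**Figure D2:**
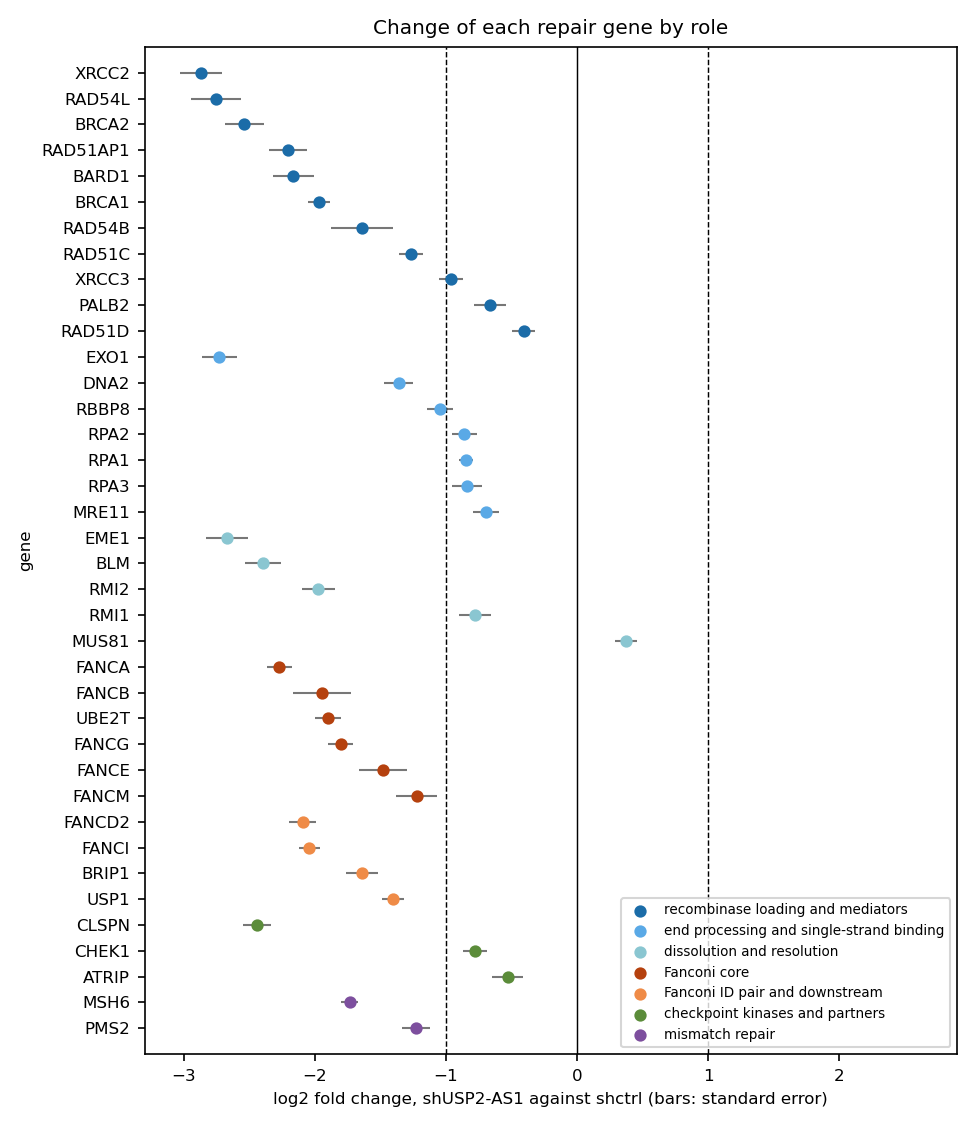
Log2 fold change of each repair gene, shUSP2-AS1 against shctrl, by role. Points are limma estimates from 2 libraries per group, bars are standard errors, and dashed lines mark the threshold of 1 in each direction. The 10 genes placed in the Fanconi groups lie between -2.27 and -1.22, while those placed under recombination run from XRCC2 at -2.87 to MUS81 at 0.38.

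Promoter sequence was read for the 32 of the 38 members with a window in RefSeq (GRCh38.p14), covering 250 bases before the annotated start and 50 after it. The letters of the E2F site were searched as TTTCCCGC, TTTCGCGC, TTTGCCGC or TTTGGCGC on both strands. They occurred in 7 members, or 21.9%, against 5.37% of the 5214 windows of genes tested and 3.33% of all 27305 windows. All 7 of these genes were called lower, with a median log2FC of -2.27, against -1.41 for the 25 members without the letters, of which 16 were called lower. Over all genes tested the medians were -0.57 with the letters and 0.18 without them. Dropping the first T, which keeps every match above and adds others, gave 19 of 32 members (59.4%) and 21.6% of windows of genes tested. The CHR element (TTTGAA or TTCGAA, both strands) was found in 2 members (6.25%, against 10.99% of windows of genes tested and 16.6% of all windows). CCAAT on either strand was found in 19 (59.4%, against 36.7% of windows of genes tested and 35.7% of all windows). The members with CCAAT had a median of -1.23 and those without it -1.97, whereas over all genes tested the medians ran the other way, -0.33 with it and 0.24 without it. A match of letters describes the sequence and is not a binding site. Only the window kept for each gene was read, so a gene without the letters may hold them at another start.

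The 7 promoters with the longer E2F letters are shown because they include members of each of the repair roles but the resolution group, and EME1 and MUS81 because the changes of these partners differed most among the pairs compared. Each stretch is 90 bases, 5′ to 3′ on the gene's strand, with capitals for the E2F letters on either strand (the shorter form in EME1, none in MUS81). The stretches run from 60 bases before the start to 30 after it, except that of FANCA, from 200 to 111 bases before it, and that of EME1, from 100 to 11 bases before it.
XRCC2 (chr7:152676112-152676201, minus strand): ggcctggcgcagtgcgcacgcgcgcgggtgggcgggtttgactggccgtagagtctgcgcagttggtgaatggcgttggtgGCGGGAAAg
EXO1 (chr1:241848144-241848233, plus strand): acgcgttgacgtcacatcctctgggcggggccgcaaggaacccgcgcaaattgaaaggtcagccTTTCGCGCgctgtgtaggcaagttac
CLSPN (chr1:35769949-35770038, minus strand): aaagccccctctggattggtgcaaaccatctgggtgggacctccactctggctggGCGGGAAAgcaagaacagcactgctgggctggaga
FANCA (chr16:89816758-89816847, minus strand): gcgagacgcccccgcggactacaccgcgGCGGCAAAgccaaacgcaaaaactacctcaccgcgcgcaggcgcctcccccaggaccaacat
FANCD2 (chr3:10026377-10026466, plus strand): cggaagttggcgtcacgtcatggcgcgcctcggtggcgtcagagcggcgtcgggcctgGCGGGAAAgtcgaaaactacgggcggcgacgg
MSH6 (chr2:47783085-47783174, plus strand): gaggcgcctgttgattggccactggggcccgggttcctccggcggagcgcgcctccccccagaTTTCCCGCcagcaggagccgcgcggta
PMS2 (chr7:6009077-6009166, minus strand): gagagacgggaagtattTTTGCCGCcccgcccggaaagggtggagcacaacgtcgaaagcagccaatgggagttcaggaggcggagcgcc
EME1 (chr17:50373129-50373218, plus strand): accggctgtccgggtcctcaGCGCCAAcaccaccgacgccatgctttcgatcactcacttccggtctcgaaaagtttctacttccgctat
MUS81 (chr11:65860373-65860462, plus strand): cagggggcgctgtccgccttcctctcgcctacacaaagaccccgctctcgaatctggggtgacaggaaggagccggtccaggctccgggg

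In XRCC2 the letters begin 22 bases after the start, in EXO1 5 bases and in MSH6 4 bases after it. In CLSPN and FANCD2 they span the start itself. In PMS2 they begin 43 bases and in FANCA 172 bases before the start. The RefSeq start and the gene start in the deposited table are the same base in XRCC2, CLSPN and PMS2, lie within 23 bases of each other in FANCA, FANCD2 and EME1, and are further apart in EXO1 (237 bases), MUS81 (3307 bases) and MSH6 (87615 bases).

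Among the mediators and helpers of strand exchange, 8 of 11 were called lower. XRCC2, which acts in a complex with RAD51D at broken ends and forks, had normalised read counts of 531 and 513 in shctrl and 57.8 and 86.3 in shUSP2-AS1. Its log2FC of -2.87 was the largest of any member (SE 0.16, limma adjusted p = 2.56e-11), and 0.382% of all genes tested had a lower estimate. In GRCh38 the gene spans chr7:152644776-152676141 (minus strand). RAD54L, a motor protein that helps pair and exchange strands, had 206 and 220 in shctrl and 30.5 and 30.8 in shUSP2-AS1, which gave a log2FC of -2.76 (SE 0.19). BRCA2, the central mediator of strand exchange, had 352 and 374 in shctrl and 67.3 and 56.3 in shUSP2-AS1, which gave a log2FC of -2.54 (SE 0.15, limma adjusted p = 5.16e-11). In these 3 genes the shUSP2-AS1 mean was between 13.8% and 17.0% of the shctrl mean, a difference larger than the spread between replicates.

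RAD51AP1, an accessory factor of strand exchange, had normalised read counts of 335 and 321 in shctrl and 65.2 and 75.7 in shUSP2-AS1, which gave a log2FC of -2.21 (SE 0.15). BARD1, the obligate partner of BRCA1, changed by -2.16 and BRCA1 by -1.97 on the log2 scale. BRCA1 had 1343 reads after normalisation in each shctrl library and 369 and 317 in those of shUSP2-AS1, so both shUSP2-AS1 libraries lay well below both shctrl libraries. RAD54B, related to RAD54L, had a log2FC of -1.64 and RAD51C, which acts in complexes with XRCC2 and with XRCC3, of -1.27. RAD54B rests on few reads, 27 and 40 in the shUSP2-AS1 libraries, and shares 66.0% of its exon bases with FSBP on the same strand. Reads from the shared bases may have been dropped or assigned to either gene, since the counting settings are not given in the sources used here.

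The remaining 3 genes of this role were lower by less than the threshold. RAD51D, the complex partner of XRCC2, had normalised read counts of 537 and 567 in shctrl and 424 and 409 in shUSP2-AS1, which gave a log2FC of -0.41 (SE 0.09, limma adjusted p = 0.000289). PALB2, which joins BRCA1 to BRCA2, had a log2FC of -0.66, and XRCC3 of -0.96. XRCC3 is uncertain, since 76.7% of its exon bases overlap KLC1 on the opposite strand and the sources used here do not say whether reads were counted by strand. Its call also depended on the setting, since it was called lower with RLE scaling, at -1.08, and without shUSP2-AS1 replicate 2, at -1.01. Thus among XRCC2, RAD51C, XRCC3 and RAD51D the estimates ran from -2.87 for XRCC2 through RAD51C and XRCC3 to -0.41 for RAD51D.

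Among the genes that cut back and cover the DNA ends, 3 of 7 tested were called lower, and the median log2FC was -0.86. EXO1, which resects breaks and also removes the error strand in mismatch repair, had normalised read counts of 607 and 636 in shctrl and 81.0 and 107 in shUSP2-AS1. The log2FC was -2.73 (SE 0.13, limma adjusted p = 4.58e-12). DNA2, a nuclease and helicase of long-range resection, had 421 and 463 in shctrl and 175 and 168 in shUSP2-AS1, which gave a log2FC of -1.36. RBBP8, which encodes the resection factor CtIP, lay at the threshold, with 605 and 558 in shctrl, 290 and 272 in shUSP2-AS1 and a log2FC of -1.05. Without shctrl replicate 1 its value was -0.99, and with upper quartile scaling it was also -0.99. Without shUSP2-AS1 replicate 2 the value was just short of the threshold, and RBBP8 was not called in any of these 3 cases.

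The 3 subunits of RPA were lower to nearly the same extent and none was called. RPA2 had normalised read counts of 690 and 601 in shctrl and 340 and 369 in shUSP2-AS1, which gave a log2FC of -0.86, and RPA1 and RPA3 had -0.84 each. The shUSP2-AS1 means were 54.9%, 55.7% and 55.9% of the shctrl means for RPA2, RPA1 and RPA3. MRE11, the nuclease that starts resection, had a log2FC of -0.70, with 450 and 455 in shctrl and 271 and 287 in shUSP2-AS1. RPA1 also had the highest level per length of any member, with 621 normalised reads per kilobase in shctrl and 346 in shUSP2-AS1.

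The genes that take apart joined molecules at the end of recombination held both strongly lower genes and the one member with an estimate above 0. EME1 and MUS81 encode the subunits of a structure-specific endonuclease. EME1 had normalised read counts of 321 and 345 in shctrl and 46.3 and 57.2 in shUSP2-AS1, which gave a log2FC of -2.67 (SE 0.16, limma adjusted p = 6.92e-11). MUS81 had 489 and 513 in shctrl and 652 and 648 in shUSP2-AS1, which gave a log2FC of 0.38 (SE 0.08, limma adjusted p = 0.000304), and so was not called. Its estimate stayed above 0 with RLE scaling, at 0.26. In annotation, 16.4% of the exon bases of EME1 overlap LRRC59 and 14.1% of those of MUS81 overlap CFL1 or EFEMP2, on the opposite strand. BLM, the helicase of the dissolution complex, had 427 and 399 in shctrl and 83.1 and 72.2 in shUSP2-AS1, which gave a log2FC of -2.40. Its partners differed, with RMI2 at -1.97 and RMI1 at -0.78. RMI2 had 440 and 468 in shctrl and 105 and 125 in shUSP2-AS1, while RMI1 had 314 and 288 in shctrl and 187 and 164 in shUSP2-AS1.

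In the Fanconi core complex, which places ubiquitin on FANCD2 and FANCI, all 6 genes tested were called lower. FANCA, a scaffold of the complex, had normalised read counts of 944 and 998 in shctrl and 191 and 210 in shUSP2-AS1. The log2FC was -2.27 (SE 0.09, limma adjusted p = 4.37e-13). FANCB, a core subunit encoded on the X chromosome, had 125 and 127 in shctrl and 28.4 and 36.1 in shUSP2-AS1, which gave a log2FC of -1.94. UBE2T, the ubiquitin-conjugating enzyme of the pathway, had 773 and 701 in shctrl and 185 and 209 in shUSP2-AS1, which gave a log2FC of -1.90. FANCG had 845 and 864 in shctrl and 261 and 228 in shUSP2-AS1, which gave a log2FC of -1.80. FANCE and FANCM, the latter a DNA-remodelling motor, had -1.48 and -1.22, and neither passed the test against a fold change of 2 (adjusted p = 0.0578 and 0.385 from limma).

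The targets of the core complex and the genes that act after it, 4 in all, were called lower. FANCD2 had normalised read counts of 798 and 863 in shctrl and 177 and 212 in shUSP2-AS1, which gave a log2FC of -2.09 (SE 0.11, limma adjusted p = 5.94e-12). FANCI, its partner, had 2400.2 and 2345 in shctrl and 523 and 633 in shUSP2-AS1, which gave a log2FC of -2.04 (SE 0.08). BRIP1, a helicase that binds BRCA1, had 433 and 482 in shctrl and 136 and 157 in shUSP2-AS1, which gave a log2FC of -1.64. USP1, the enzyme that removes the ubiquitin again, had 860.0 and 857 in shctrl and 323 and 324 in shUSP2-AS1, which gave a log2FC of -1.41. The conjugating enzyme UBE2T and USP1, which removes the ubiquitin, were thus both called lower. FANCC, FANCF and FANCL of the core complex were not analysed here.

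In the checkpoint group only CLSPN was called. CLSPN encodes claspin, the adaptor through which ATR activates CHEK1. It had normalised read counts of 754 and 752 in shctrl and 146 and 129 in shUSP2-AS1, which gave a log2FC of -2.44 (SE 0.11, limma adjusted p = 8.78e-13). CHEK1, the effector kinase, had 568 and 593 in shctrl and 345 and 330.2 in shUSP2-AS1, which gave a log2FC of -0.78 (SE 0.09). ATRIP, the subunit that brings ATR to RPA-coated DNA, had 270 and 274 in shctrl and 184 and 192 in shUSP2-AS1, which gave a log2FC of -0.53. On the same strand, 26.7% of the exon bases of ATRIP are shared with TREX1. In mismatch repair, MSH6, which recognises single mispaired bases, had 2993 and 3164 in shctrl and 874 and 979 in shUSP2-AS1, which gave a log2FC of -1.73 (SE 0.06, limma adjusted p = 1.44e-13). PMS2, the nuclease subunit that nicks the new strand, had 455 and 467 in shctrl and 191 and 201 in shUSP2-AS1, which gave a log2FC of -1.23. PMS2 has near-identical pseudogene copies in the genome, so some of its reads may have been dropped or assigned to those copies. In MSH6, 24.2% of the exon bases overlap FBXO11 or RPL36AP15 on the opposite strand. Smaller overlaps with genes on the opposite strand were found for RAD54L (19.9%), FANCA (19.6%) and CHEK1 (13.4%). On the same strand, RAD51D shared 8.9% and FANCB 6.3% of their exon bases with other genes.

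Several of these proteins work as partners, some of them within larger complexes. The levels of the genes of a pair were compared within each library per length (normalised reads per kilobase of gene length). The 8 pairs were chosen after their values were seen. The ratio of EME1 to MUS81 was 1.09 and 1.11 in shctrl but 0.117 and 0.146 in shUSP2-AS1, a difference of -3.07 on the log2 scale. The ratio of XRCC2 to RAD51D, which sit in one complex, was 2.31 and 2.12 in shctrl and 0.319 and 0.494 in shUSP2-AS1. In each of these pairs the order of levels per length differed between the groups, as the plot of partner levels shows. That order rests on the deposited gene lengths (3294 bases for EME1, 5448 for MUS81, 4832 for XRCC2 and 11304 for RAD51D), since before division by length EME1 was below MUS81 and XRCC2 below RAD51D in every library. The change of a ratio between groups does not depend on the lengths. BRCA2 was below PALB2 in every library, with ratios of 0.409 and 0.376 in shctrl and 0.123 and 0.0909 in shUSP2-AS1.

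Other pairs kept their ratio more closely. The ratio of FANCD2 to FANCI was 0.470 and 0.520 in shctrl and 0.478 and 0.474 in shUSP2-AS1, and that of BRCA1 to BARD1 was 3.65 and 3.81 in shctrl and 5.19 and 3.57 in shUSP2-AS1. In both pairs the ratios of the groups overlapped or crossed, and in the other 6 they did not. The share of non-overlapping ratios over other gene pairs was not computed, and 6811 of 6812 single genes separated the groups. The count of 6 is therefore no trait of these partners. With 2 libraries against 2, an exact two-sided permutation test cannot give a p below 0.333, and any pair without overlap reaches that value. Those 6 pairs reached it (adjusted p = 0.444 from this permutation test over the 8 pairs). The test thus only restates which ratios did not overlap.

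**Figure D3:**
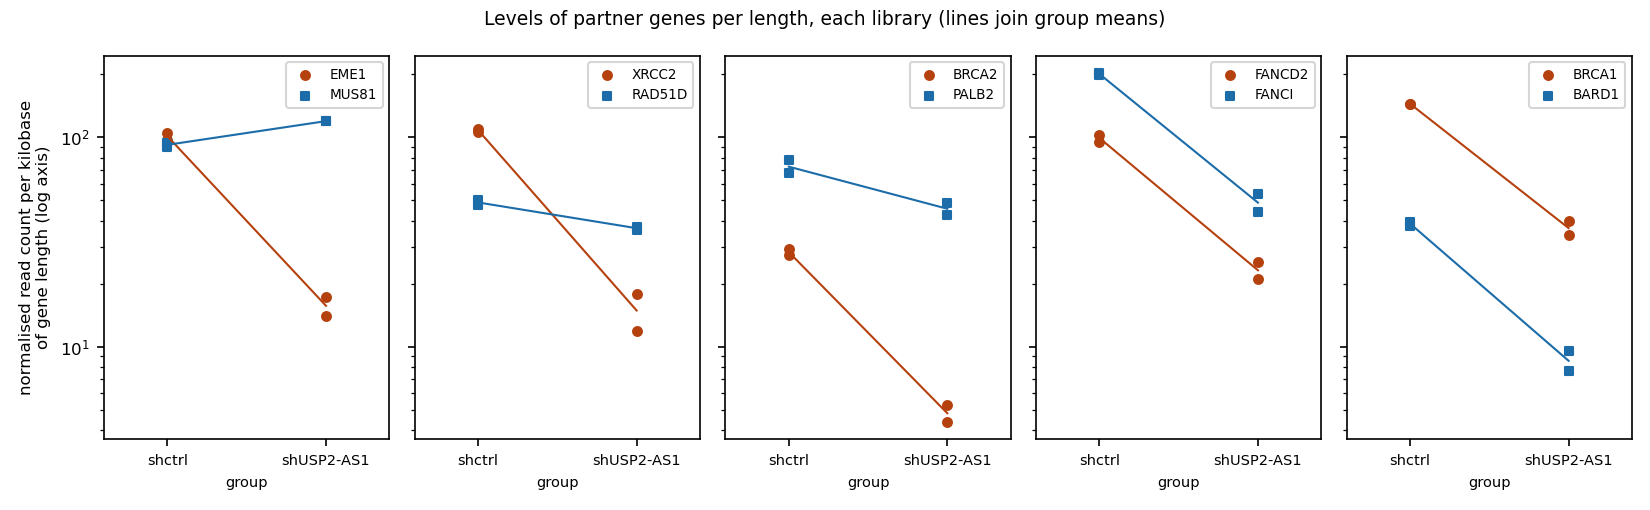
Normalised read count per kilobase of gene length (log axis) of the genes of 5 pairs in the 4 libraries. Points are libraries and lines join the group means. EME1 falls from 101 to 15.7 on average while MUS81 goes from 92.0 to 119, and FANCD2 and FANCI run in parallel.

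The other genes of these pathways were taken from lists of gene names, with the number tested given beside each call. Of 45 further recombination and Fanconi genes 22 were tested, and 13 were called lower and 0 higher, with a median log2FC of -1.27. The largest changes were in POLQ, the polymerase of microhomology-mediated end joining, with -2.79, in DCLRE1A, a crosslink repair nuclease, with -2.33, and in FIGNL1, an ATPase of the recombination pathway, with -2.21. FIGNL1 had normalised read counts of 544 and 498 in shctrl and 118 and 106 in shUSP2-AS1. Of 17 further checkpoint and damage signalling genes 10 were tested and 8 were called lower, led by the phosphatase gene CDC25C with -2.68, the fork protection gene TIMELESS with -1.99 and its partner TIPIN with -1.98. Of 4 further mismatch repair genes 2 were tested and both were called lower, namely LIG1, a replicative DNA ligase, with -1.33 and PCNA, which also stands among the cycling markers, with -1.01.

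Pathways that repair DNA outside S phase as well were set beside these. Of 11 end joining genes, a list that leaves out POLQ (counted above), 6 were tested and 0 were called lower. Their largest changes were in APLF, an accessory factor, with 1.04, the one gene called higher, and in DCLRE1C (Artemis) and XRCC6 (Ku70), with -0.89 and -0.84. Of 21 base excision genes 12 were tested and 3 were called lower, NEIL3 with -2.14, PARP2 with -1.38 and UNG with -1.35. Of 23 nucleotide excision genes 9 were tested and none was called in either direction, with estimates from -0.77 to 0.54. The genes of that list with the largest estimates were XAB2 with -0.77, ERCC3 with -0.60 and CETN2 with 0.54. The median was -0.70 for end joining, -0.67 for base excision and -0.21 for nucleotide excision. Differences between the lists were not tested.

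**Figure D4:**
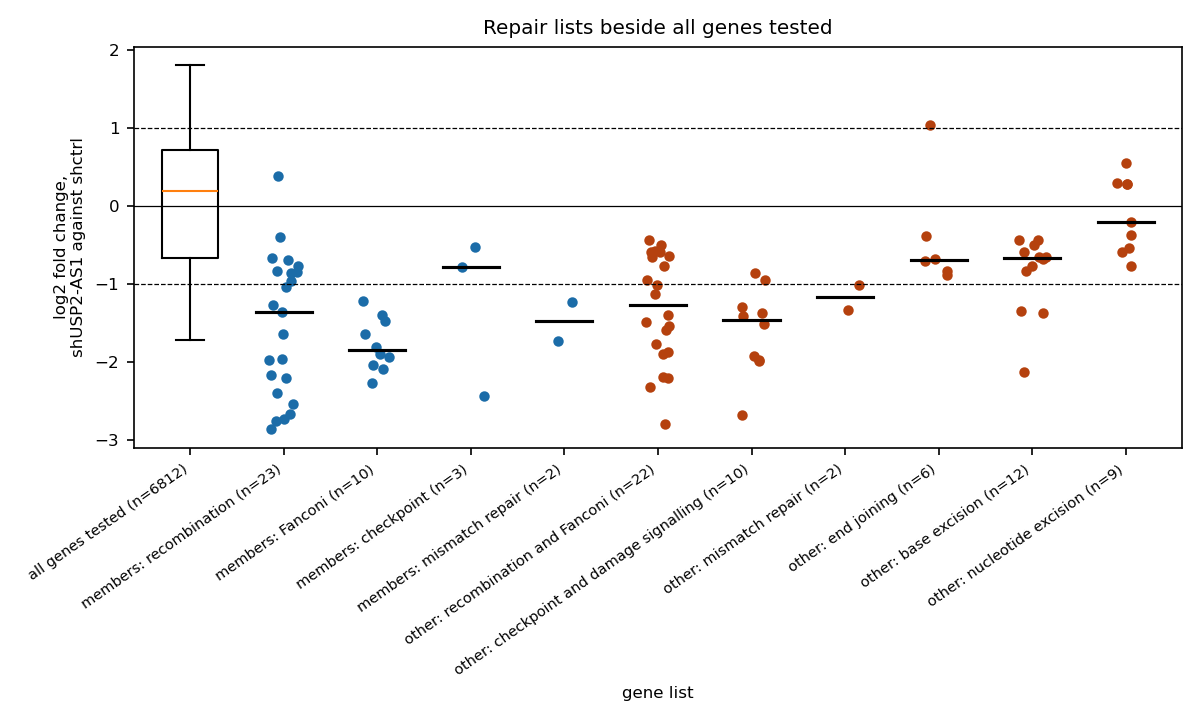
Log2 fold change, shUSP2-AS1 against shctrl, of members (blue) and of other repair genes (orange) by list, with a bar at each median. The box on the left gives all 6812 genes tested, with quartiles and whiskers from the 5th to the 95th percentile, and dashed lines mark the threshold of 1. Most recombination and Fanconi genes lie below -1, while the nucleotide excision genes lie between -0.77 and 0.54.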

How the data were processed

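Per the submitters' processing notes, reads were aligned to hg38 and processed with HISAT2 (2.0.5), featureCounts (1.5.0-p3) and DESeq2 (1.20.0). The authors deposited a normalised signal per gene and library, that is, read counts scaled by one factor for each library. Dividing by the value of 1 read gave whole reads for 100% of the values in each library (tolerance 0.01 reads). They also deposited an adjusted p-value, used here only to see that all 6828 rows are below 0.05, a log2 fold change, which was not used, and the gene length in bases. The columns named scr were taken as shctrl and the other arm of the table as shUSP2-AS1, with the replicate number in the column name. The columns of group means were not used.

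Genes averaging 10 or more (6812 of 6828) were fitted as log2(value + 1) with limma 3.58.1 (R 4.3.3, eBayes with trend) over all 4 libraries, with Benjamini-Hochberg adjustment over all 6812 genes. As only genes past the authors' threshold are in the table, the adjustment covers a selected set and the adjusted p-values come out too small. The study's methods state 2 biological replicates per group. Chi-square per degree of freedom between replicates was 3.75 in shctrl and 3.84 in shUSP2-AS1, so no library was a copy of another. The fits were tested on simulated data, and edgeR 4.0.16 and DESeq2 1.42.0 on recovered reads were alternatives.

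The members, the role groups and the lists of other genes were chosen with earlier results of these data known. Values per library were to be given for the 4 members of each role with the largest absolute change and for any called higher, and the others by range and count. Those of BRCA1, RAD51D, MRE11 and MUS81, and the 8 pairs, were added after their values were seen. Of the other genes, the 3 with the largest absolute change in each list are named, and some genes are not reported here. Members were matched by gene symbol and other genes by Ensembl identifier. Exon overlaps come from GENCODE release 44, whose exon totals differ from the deposited gene lengths for some genes (17722 against 10955 bases in MSH6). Promoters come from RefSeq.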

Additional observations from a re-analysis of the deposited data

How the results depend on the processing

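The count of 27 members called lower ranged from 26 to 28 with TMM, RLE or upper quartile scaling, no filter on low values, at least 10 reads in every library, a pseudocount of 0.1, edgeR, DESeq2 and each library left out in turn (26 to 27). The test against a fold change of 2 left 23, without PMS2, RBBP8, FANCM and FANCE. Without a fold change threshold 37 members were lower and 1, MUS81, was higher. RLE scaling moved the median log2 fold change of all genes tested by -0.12 and brought in XRCC3, at -1.08, which was also called without shUSP2-AS1 replicate 2, at -1.01. No member changed sign under any of these settings. Over all genes tested, 922 were called lower and 1098 higher, against 523 and 541 in the test against a fold change of 2 and 3362 and 3449 without a fold change threshold. RLE scaling turned that balance, with 1143 lower and 934 higher, and upper quartile scaling gave 830 and 1204. The TMM, RLE and upper quartile factors were computed from the listed genes alone, all past the authors' threshold. Shifts under these scalings, that of XRCC3 with RLE included, therefore cannot be told apart from the effect of that selection. In a fit with a replicate block, 27 members and 922 listed genes were called lower and 1098 listed genes higher. Replicate deviations of the groups had a correlation of -0.04 over all genes tested, so the numbers were not taken to pair the libraries. Depth limits RAD54B, FANCB and RAD54L most, with 27 to 41 reads in each shUSP2-AS1 library.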
